A study of Mus musculus with 30 samples.

Results

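TFH2 cells were set against TFH cells of one sort gate, the CD4+CD45.2+ CXCR5lo PD1+ cells of mouse spleen. The libraries were picked by gate, cell type and assay as labelled: the 2 QuantSeq libraries labelled TFH2 and the 3 labelled TFH in that gate, 5 of the 22 QuantSeq libraries and of 30 libraries in all. TFH2 cells came from mice of the genotype OTII Tg IL-4BacTg x OTII Tg and TFH cells from OTII Tg mice. All were C57BL/6 mice 8 weeks old that share the OTII Tg, and TFH2 mice carry the IL-4BacTg transgene besides. OTII is a T cell receptor transgene that recognises an ovalbumin peptide, and the name IL-4BacTg marks a bacterial artificial chromosome transgene of the interleukin-4 region. The labels do not say which genes it carries, so counts from the endogenous Il4 region and from the transgene cannot be told apart. QuantSeq counts reads from the 3' ends of transcripts, and each library started from 10 ng of RNA.

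T follicular helper (TFH) cells enter B cell follicles through the chemokine receptor CXCR5, are held in the programme by the repressor Bcl6, and help B cells with interleukin-21 and interleukin-4. T helper 2 (TH2) cells act in tissues, are directed by Gata3 and make interleukin-4, interleukin-5 and interleukin-13. A CXCR5lo PD1+ cell stands at the edge of the follicular programme, next to circulating and tissue-homing helper cells.

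The libraries held 2.84 and 1.83 M counts (M is 10 to the power 6) for TFH2, and 3.65, 4.37 and 3.07 M for TFH. Levels are counts per M counts of the library (CPM). The labels name no animals or cultures, so the p-values speak for the spread of libraries within groups, part of which may be technical. It was estimated over all 22 QuantSeq libraries in 9 groups, not over these 5 alone. Among these 5 libraries the spread was wide. In pairs within a group, 25.5 to 32% of genes above 200 counts were more than 2-fold apart. In pairs across the groups it was 27.2 to 38.3%. Pdcd1, which encodes the PD1 of the gate, had 0 counts in TFH2 replicate 1 and 67.0 CPM in TFH2 replicate 2, against 91.8, 32.5 and 31.9 CPM in TFH libraries. Y-linked Ddx3y was read in both TFH2 libraries and in no TFH library, and Xist stood at 10.9 and 22.3 CPM in TFH2 libraries against 194, 225 and 315 CPM in TFH libraries. Donor sex and the IL-4BacTg genotype therefore cannot be told apart here. A fit with a sex term rests on the TH2 libraries, the only group of both sexes. By Ddx3y and Xist, TH2 replicates 1 and 2 read as female and replicates 3 and 4 as male. The term also holds any other difference between those replicates, so its calls do not part sex from genotype.

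The edgeR quasi-likelihood test called 19 of 14383 genes (0.132%) at an adjusted p under 0.05, 8 higher (0.0556%) and 11 lower (0.0765%) in TFH2 cells. In TFH2 cells the receptor gene Cxcr6, the Id2 repressor of E proteins and Rgs1, a brake on chemokine receptors, rose. Foxo1 and Actn1, which are high in resting T cells, and Socs3, a brake on cytokine signals, fell. Without TFH2 replicate 1 the count was 118, 16 higher and 102 lower, and 15 of the 19 were among them. Without TFH2 replicate 2 it was 17, with 8 of the 19, and without TFH replicate 2 it was 13, with 9 of the 19. In a fit with a sex term it was 82, 55 higher and 27 lower, with 9 of the 19. Every one of the 19 had groups that did not overlap, as did 9.8% of all genes tested in the higher and 8.18% in the lower direction. 3 of the lower genes have no standard symbol and are not named.

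**Figure D1:**
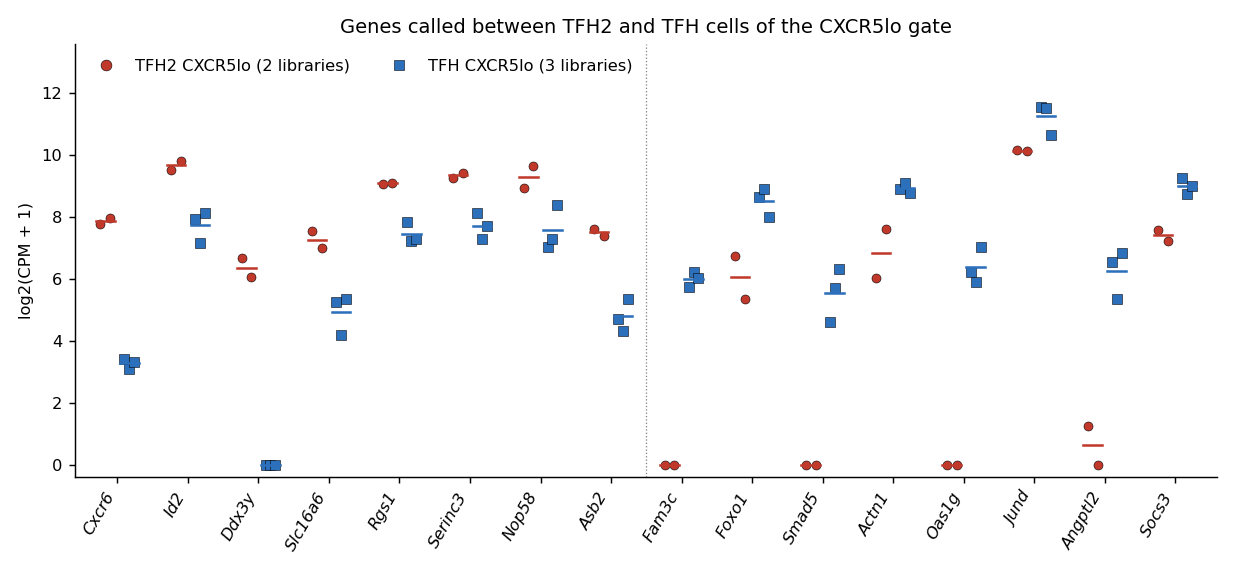
Level of the 16 named genes called between TFH2 and TFH cells of the CXCR5lo gate, as log2(CPM + 1). Each point is a library (2 TFH2, 3 TFH) and each bar the mean of the plotted values; genes left of the dotted line were higher in TFH2 cells, those right of it lower. Fam3c, Smad5 and Oas1g lie at 0 in both TFH2 libraries.

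Cxcr6 encodes the receptor for the membrane-bound chemokine CXCL16 and marks tissue-resident and effector T cells (ENSMUSG00000048521.8, chr9:123806475-123811760, plus strand, GRCm38). It stood at 219 and 249 CPM in TFH2 libraries, against 9.59, 7.55 and 9.12 CPM in TFH libraries. The libraries of each group lie close together and the groups are far apart. The fitted difference was 25.0-fold (log2 4.65 ± 0.59 SE, adjusted p 1.88e-08), and it was called in each of the 10 alternative fits, with a highest adjusted p of 0.00557.

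Id2 encodes an inhibitor of E proteins that favours effector over follicular T cell fates (ENSMUSG00000020644.9, chr12:25093799-25097140, minus strand). It stood at 744 and 903 CPM in TFH2 libraries, against 246, 143 and 279 CPM in TFH libraries. Both TFH2 libraries lie above all TFH libraries (log2 1.8 ± 0.31, adjusted p 0.000161), a call held with each library left out and lost in a fit on the 5 libraries alone (adjusted p 0.0793). Rgs1, which dampens signals of G protein coupled chemokine receptors, stood at 542 and 549 CPM, against 230.1, 150 and 155 CPM in TFH libraries (log2 1.53 ± 0.33, adjusted p 0.00922). The groups do not overlap, but the call was lost without TFH2 replicate 2, TFH replicate 2 or TFH replicate 3, with a highest adjusted p of 0.127.

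Asb2 encodes a subunit of a cullin ubiquitin ligase that targets filamins. It stood at 198 and 168 CPM in TFH2 libraries, against 25.5, 19.2 and 40.4 CPM in TFH libraries (log2 2.61 ± 0.60, adjusted p 0.0479). Every TFH2 library exceeds every TFH library, yet leaving out any TFH library ended the call (highest adjusted p 0.355), and with the sex term it was called (adjusted p 0.000117). Slc16a6, a solute carrier of the monocarboxylate transporter family, stood at 188 and 127 CPM against 37.0, 17.4 and 39.7 CPM in TFH libraries (log2 2.25 ± 0.48, adjusted p 0.00764). Its call was lost without TFH2 replicate 1 (adjusted p 0.0587) or TFH replicate 2 (0.157), and with the sex term (0.174).

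Serinc3, a membrane protein named for serine incorporation, stood at 619 and 692 CPM in TFH2 libraries, against 282, 156 and 210.0 CPM in TFH libraries (log2 1.52 ± 0.34, adjusted p 0.019). Nop58, a core protein of box C/D small nucleolar ribonucleoproteins, stood at 491 and 805 CPM against 132, 155 and 336 CPM in TFH libraries (log2 1.54 ± 0.36, adjusted p 0.032). In both genes the groups lie apart, with TFH2 replicate 2 the higher of its group. Each call was lost without TFH2 replicate 2 or TFH replicate 2, Serinc3 also without TFH replicate 3 and Nop58 also without TFH replicate 1 (highest adjusted p 0.355 for Serinc3 and 1.0 for Nop58), and with the sex term (adjusted p 0.159 for Serinc3 and 0.0924 for Nop58). The last of the 8 is Ddx3y, at 101 and 66.0 CPM in TFH2 libraries against 0 in all TFH libraries (at least 101-fold higher, adjusted p 0.00764), a call lost without TFH replicate 2 or 3 and with the sex term (adjusted p 0.821).

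Among the genes that fell, Foxo1 encodes the forkhead factor that sustains naive T cell homing and drives Klf2 and Il7r (ENSMUSG00000044167.6, chr3:52268336-52353221, plus strand). It stood at 107 and 40.3 CPM in TFH2 libraries, against 406, 485 and 257 CPM in TFH libraries. All TFH2 values lie below all TFH values (log2 -2.45 ± 0.45, adjusted p 0.00112). The call was lost without TFH2 replicate 2, the lower library (adjusted p 0.346). Actn1, an actin crosslinker that is high in naive T cells, stood at 64.8 and 197 CPM, against 480, 550.5 and 444 CPM in TFH libraries (log2 -2.02 ± 0.41, adjusted p 0.00585). Its call was lost without TFH2 replicate 1, which holds the lower value (adjusted p 0.261).

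Socs3 encodes the feedback inhibitor of gp130 and STAT3 signalling. It stood at 193 and 151 CPM in TFH2 libraries, against 617, 435 and 512 CPM in TFH libraries (log2 -1.68 ± 0.40, adjusted p 0.0348). The groups do not overlap, but no leave-one-out fit called it (highest adjusted p 0.928), nor did the fits with a sex term or with RLE factors (adjusted p 0.589 and 0.057). DESeq2 called it (adjusted p 2.61e-07). Jund, an AP-1 subunit that restrains proliferation, stood at 1152 and 1126 CPM, against 3051, 2970.4 and 1617 CPM in TFH libraries (log2 -1.24 ± 0.26, adjusted p 0.00687), and without TFH2 replicate 2 or TFH replicate 2 its call was lost.

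4 genes were at or near 0 in TFH2 libraries. Fam3c, a secreted protein of the FAM3 family (ENSMUSG00000029672.16, chr6:22306520-22356243, minus strand), had 0 counts in both TFH2 libraries, against 53.1, 73.5 and 64.1 CPM in TFH libraries. With 3 counts put in each empty library, it was at least 47.2-fold lower in TFH2 cells (adjusted p 1.21e-05), and all 10 alternatives called it. Smad5, a transducer of bone morphogenetic protein signals, had 0 counts in TFH2 libraries, against 23.6, 51.7 and 78.5 CPM in TFH libraries (at least 38.1-fold lower, adjusted p 0.00305), a call lost without TFH2 replicate 2 (adjusted p 0.067). Bounds cover counting error only, and some genes drop out of single libraries: between the TFH2 libraries, 34 and 69 genes at 50 CPM or more in the other had 0 counts.

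Oas1g, an interferon-induced oligoadenylate synthetase with near-identical paralogs, had 0 counts in TFH2 libraries, against 73.7, 58.8 and 132 CPM in TFH libraries (at least 65.6-fold lower, adjusted p 0.00662). Its call was lost without TFH2 replicate 2 (adjusted p 0.067) and with the sex term (adjusted p 1.0). Angptl2, a secreted protein of the angiopoietin-like family found in TFH cells, had 4 and 0 counts, against 342, 174 and 353 counts in TFH libraries, or 93.7, 39.8 and 115 CPM (adjusted p 0.0209). Its call was lost without TFH2 replicate 2 or TFH replicate 3 (highest adjusted p 0.534) and with the sex term (adjusted p 0.469). All 4 share an empty or nearly empty TFH2 side, and their fitted ratios depend on the prior count and are not given.

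Naive and recirculating T cells keep lymph node homing receptors and quiescence factors, of which some, such as Tcf7, are also kept by TFH cells. Of 20 such genes, all tested, 2 fell (Foxo1 and Actn1) and 0 rose. In 13 the groups did not overlap with TFH2 lower and in 2 with TFH2 higher, 65.0% and 10.0% of the list. Of all genes tested, 8.18% and 9.8% lay so. The list median was log2 -1.54 (-1.61 when genes with an empty group take their bound), against -0.13 over the 13201 tested genes with a count in these libraries, and it ran from -1.78 to -1.11 over the alternatives. The summed level was 1756 and 2019.5 CPM in TFH2 libraries, against 4348, 5574 and 3589 CPM in TFH libraries. The sums also lay apart at CXCR5hi, at 1735 to 2376 CPM in TFH2 libraries against 2423 to 3271 CPM in TFH libraries. At CXCR5int they were 2367 to 2683 CPM against 3218 to 3361 CPM. The list median of the difference between gates, described below, was log2 -1.38. This list was chosen with earlier results of these data known.

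Klf2, the factor that drives S1pr1, stood at 165 and 188 CPM in TFH2 libraries, against 373, 664 and 339 CPM in TFH libraries (adjusted p 0.265, DESeq2 0.0219). S1pr1, the receptor for exit into blood, stood at 76.1 and 111 CPM against 223, 416 and 162 CPM in TFH libraries (adjusted p 0.366). Tcf7, the factor shared by naive and follicular cells, stood at 353 and 268 CPM against 735, 838 and 402 CPM (adjusted p 0.344).

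Ccr7, the receptor for the T cell zone, showed the libraries' limits: TFH2 replicate 1 held 77.1 CPM and replicate 2 held 0, against 284, 469 and 239 CPM in TFH libraries (adjusted p 0.756). It was called without TFH2 replicate 1, which leaves a TFH2 group at 0 counts (adjusted p 0.00378), and with the sex term (adjusted p 0.00673). Bach2, a repressor of effector genes, had 0 counts in both TFH2 libraries, against 24.7, 17.4 and 8.14 CPM (adjusted p 0.0686, at least 12.4-fold lower), and was called by DESeq2 (adjusted p 0.00815) and without TFH replicate 3 (adjusted p 0.0482). Foxp1, a quiescence factor, stood at 87.3 and 268 CPM against 359, 419.5 and 322 CPM in TFH libraries (adjusted p 0.46, and 0.041 without TFH2 replicate 2). Against this direction, Ly6c2, a memory marker, stood at 16.9 and 44.7 CPM, against 0, 0 and 10.7 CPM in TFH libraries (adjusted p 0.756).

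**Figure D2:**
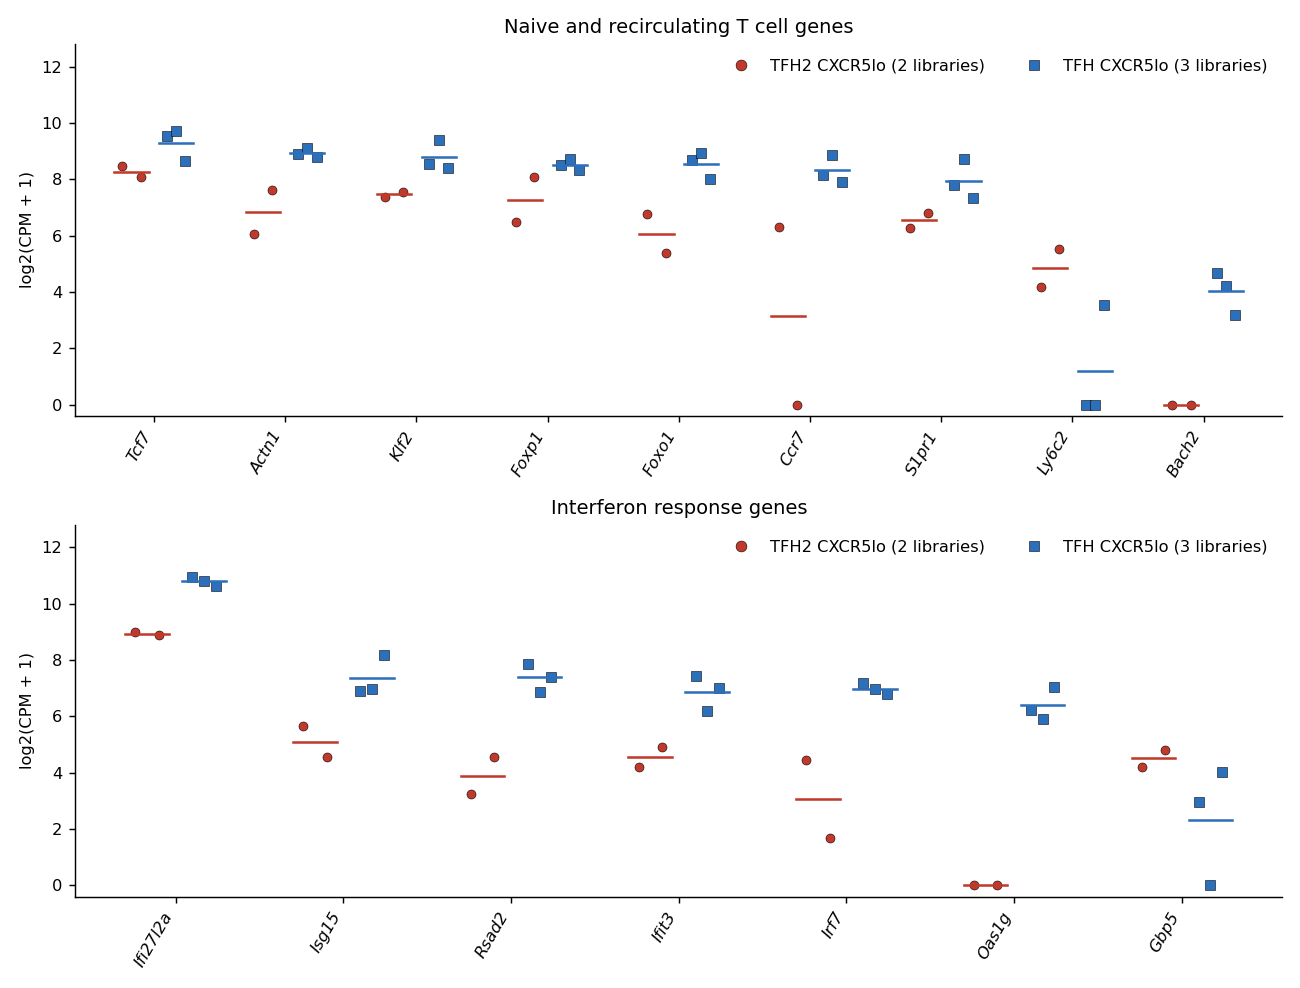
Level of the naive and recirculating T cell genes (top) and interferon response genes (bottom) whose values are given in the text, as log2(CPM + 1), ordered by mean CPM. Igfbp4, the other naive and recirculating gene apart with TFH2 higher (39.4 and 12.0 CPM against 0, 11.2 and 0 CPM), is not drawn. Points are libraries (2 TFH2, 3 TFH) and bars the mean of the plotted values. The TFH2 libraries lie below the TFH libraries in every gene drawn except Ly6c2 and Gbp5, where they lie above; the genes drawn were picked after their values were seen and are not the whole lists.

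Interferons signal through STAT factors and Irf9 to promoters that hold an interferon-stimulated response element. Of 44 interferon response genes tested, 1 fell in TFH2 cells (Oas1g) and 0 rose. In 18 (40.9%) the groups did not overlap with TFH2 lower, and in 1 (2.27%) with TFH2 higher, against 8.18% and 9.8% of all genes. The list median was log2 -1.30, from -1.94 to -0.78 over the alternatives. The summed level was 2492 and 2359 CPM in TFH2 libraries, against 5937, 4681 and 6006 CPM in TFH libraries. It was not particular to this gate. At CXCR5hi the sums were 2782 to 2917 CPM in TFH2 libraries against 4522 to 6295 CPM in TFH libraries. At CXCR5int they were 2575 to 2875 CPM against 6075 to 6302 CPM. The list median of the difference between gates, described below, was log2 -0.20.

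Ifi27l2a, a small mitochondrial interferon-induced protein, stood at 509 and 469 CPM in TFH2 libraries, against 1968, 1785 and 1586 CPM in TFH libraries (adjusted p 0.668, DESeq2 0.0208). Irf7, which amplifies type I interferon, stood at 21.1 and 2.18 CPM, against 144, 126 and 109 CPM in TFH libraries (adjusted p 0.0891). Rsad2, the antiviral protein viperin, stood at 8.45 and 22.3 CPM against 233, 117 and 168 CPM (adjusted p 0.756). In all of these the groups lie apart, and the main edgeR test called none. In edgeR's fit on the 5 libraries alone Ifi27l2a was called (adjusted p 0.0129). Irf7 was called by DESeq2 (adjusted p 0.00538) and by edgeR with no filter on low counts (adjusted p 0.0351). With the sex term its adjusted p was 0.967, and without TFH2 replicate 1 its log2 difference was -5.96.

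Ifit3, which blocks viral translation in the IFIT complex, stood at 17.3 and 28.9 CPM, against 170.1, 71.4 and 129 CPM in TFH libraries (adjusted p 0.756). Isg15, the ubiquitin-like modifier, stood at 50 and 22.3 CPM against 119, 126 and 291 CPM (adjusted p 0.756). With the sex term Isg15 was called lower (log2 -4.07, adjusted p 0.0135). Gbp5, a guanylate binding protein, was the member whose TFH2 libraries lay above, at 17.6 and 27.3 CPM against 6.85, 0 and 15.3 CPM in TFH libraries.

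The promoters of these genes were searched for the core of the response element, GAAANNGAAA, on both strands, in the window of 250 bases before to 50 after the start (RefSeq, GRCm38.p6). It was found in 20 of the 32 interferon response genes with a promoter in the table (62.5%). Of the 13 of them whose TFH2 libraries all lay lower, 8 held it (61.5%). It was found in 3.44% of all 32851 promoters and in 4.04% of the 8580 tested genes with a promoter. Among the naive and recirculating genes 1 of 17 held it (5.88%). The match describes letters in a window and not binding. Promoters without a match are not shown. The promoters of 4 genes described above that hold a match are shown, with every match in capitals (TTTCNNTTTC is the match on the other strand).
Oas1g (chr5:120887564-120887863, minus strand): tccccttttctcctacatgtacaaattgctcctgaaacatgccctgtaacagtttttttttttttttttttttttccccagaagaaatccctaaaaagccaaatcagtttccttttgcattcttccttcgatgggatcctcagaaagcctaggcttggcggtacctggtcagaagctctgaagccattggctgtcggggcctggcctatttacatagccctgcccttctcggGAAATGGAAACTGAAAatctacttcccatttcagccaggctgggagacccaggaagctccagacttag
Rsad2 (chr12:26456403-26456702, minus strand): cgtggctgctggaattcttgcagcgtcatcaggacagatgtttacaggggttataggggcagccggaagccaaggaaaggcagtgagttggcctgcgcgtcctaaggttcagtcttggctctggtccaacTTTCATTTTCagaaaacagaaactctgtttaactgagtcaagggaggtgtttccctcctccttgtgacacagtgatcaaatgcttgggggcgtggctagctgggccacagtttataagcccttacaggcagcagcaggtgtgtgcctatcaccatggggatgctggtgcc
Ifit3 (chr19:34583279-34583578, plus strand): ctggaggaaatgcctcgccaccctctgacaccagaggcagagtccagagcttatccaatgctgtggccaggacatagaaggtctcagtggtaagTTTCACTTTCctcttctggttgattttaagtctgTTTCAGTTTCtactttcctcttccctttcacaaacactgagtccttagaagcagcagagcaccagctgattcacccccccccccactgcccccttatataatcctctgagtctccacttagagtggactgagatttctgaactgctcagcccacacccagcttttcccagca
Isg15 (chr4:156200769-156201068, minus strand): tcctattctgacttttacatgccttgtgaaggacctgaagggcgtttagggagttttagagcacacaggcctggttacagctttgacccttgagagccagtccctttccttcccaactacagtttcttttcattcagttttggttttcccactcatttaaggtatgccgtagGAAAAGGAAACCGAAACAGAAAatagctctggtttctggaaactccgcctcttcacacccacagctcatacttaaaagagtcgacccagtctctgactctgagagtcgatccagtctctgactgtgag
Oas1g carries 2 overlapping matches and Isg15 3, all on the strand of the gene, while Ifit3 carries 2 and Rsad2 1 on the other strand.

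Type 2 genes had no call. Of 15 TH2 genes tested, 0 were called. In 8 (53.3%) the groups did not overlap with TFH2 higher and in 1 (6.67%) with TFH2 lower, against 9.8% and 8.18% of all genes. The median was log2 1.52, from 1.28 to 2.51 over the alternatives. Gata3 stood at 288 and 515 CPM in TFH2 libraries, against 203, 103 and 87.6 CPM in TFH libraries. The groups do not overlap (log2 1.52 ± 0.41, adjusted p 0.153), and the call was made by DESeq2 (adjusted p 0.0339), without TFH2 replicate 1 (0.0266) and without TFH replicate 1 (0.041). Il13 stood at 62.3 and 132 CPM, against 12.1, 0 and 0 CPM in TFH libraries (adjusted p 0.756).

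Il5, the eosinophil cytokine, stood at 25.0 and 71.9 CPM in TFH2 libraries, against 0 in all TFH libraries (at least 58.5-fold higher by its bound, adjusted p 0.74). Il4 overlapped, at 16.2 and 3.27 CPM in TFH2 libraries against 0, 10.1 and 1.30 CPM in TFH libraries (adjusted p 1.0). Its difference was log2 1.27 ± 2.12, and -0.38 without TFH2 replicate 1. Pparg, a nuclear receptor of TH2 and fat cells, stood at 23.9 and 24.5 CPM against 0 in all TFH libraries (adjusted p 0.729). Il4ra, which encodes the interleukin-4 receptor chain, overlapped, at 169.7 and 279.6 CPM against 148, 76.7 and 218 CPM.

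Among the follicular genes the gate's own markers were not called. Of 20 TFH genes tested, 1 fell (Angptl2) and 0 rose. In 6 (30.0%) the groups did not overlap with TFH2 lower and in 2 (10.0%) with TFH2 higher, against 8.18% and 9.8% of all genes. The median was log2 -0.75, from -0.91 to -0.10 over the alternatives. Cxcr5 stood at 34.5 and 35.4 CPM in TFH2 libraries, against 21.9, 12.6 and 27.3 CPM in TFH libraries (log2 0.68 ± 1.04, adjusted p 1.0). Bcl6 stood at 32.8 and 31.1 CPM against 32.6, 58.6 and 78.5 CPM (log2 -0.92 ± 0.75, adjusted p 0.801). Il21 overlapped, at 29.9 and 60.5 CPM in TFH2 libraries against 90.4, 19.7 and 38.7 CPM in TFH libraries (adjusted p 1.0).

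Pdcd1 differed by log2 -0.75 ± 1.05 (adjusted p 1.0), by 0.25 without TFH2 replicate 1, and was called without TFH2 replicate 2 (adjusted p 0.000583), when the library with 0 counts stood alone. Maf, a factor of interleukin-4 and interleukin-21 expression, stood at 1948 and 2596 CPM, against 983, 1083 and 1361 CPM in TFH libraries (log2 0.90 ± 0.28, adjusted p 0.462). It was called without TFH2 replicate 1 (adjusted p 0.0197) and with the sex term (adjusted p 0.00146). Icos, the costimulatory receptor of TFH cells, stood at 242 and 361 CPM against 489, 559 and 546 CPM in TFH libraries (adjusted p 0.756). The HMG-box factor Tox2 overlapped at 128 and 204 CPM against 241, 78.5 and 231 CPM. Ascl2, which can induce Cxcr5, had 0 counts in all 5 libraries.

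Among homing and effector receptors, Cxcr6 was the 1 gene called of 13 chemokine receptors tested. In 8 of the 13 (61.5%) the groups did not overlap with TFH2 higher, against 9.8% of all genes. Ccr7 was the 1 gene apart with TFH2 lower (7.69%, against 8.18% of all genes). Ccr2, the receptor for monocyte chemoattractant protein, stood at 87.0 and 154 CPM in TFH2 libraries, against 18.6, 0 and 0 CPM in TFH libraries. Ccr4, a receptor of TH2 and skin-homing cells, stood at 46.1 and 73.0 CPM against 13.4, 3.20 and 0 CPM. The adjusted p was 0.756 for both genes, and Ccr2 was called without TFH replicate 1, which leaves TFH libraries at 0 (adjusted p 5.74e-09), and with the sex term (adjusted p 0.000105).

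Of 18 TH1 and cytotoxic genes tested, Cxcr6 alone was called. In 7 (38.9%) the groups did not overlap with TFH2 higher and in 1 (5.56%) with TFH2 lower, against 9.8% and 8.18% of all genes. The median was log2 1.74, but ran from -0.18 to 4.87 over the alternatives. Klrg1, a receptor of terminal effector cells, stood at 112 and 162 CPM in TFH2 libraries, against 0.274, 4.58 and 0 CPM in TFH libraries (adjusted p 0.698). Nkg7, a granule protein, stood at 157 and 169 CPM against 48.5, 3.43 and 30.3 CPM, and Ccl5, a chemokine of effector cells, at 151 and 115 CPM against 0, 22.0 and 13.3 CPM in TFH libraries (adjusted p 0.756 each). Runx3, the cytotoxic lineage factor, overlapped at 235 and 133 CPM against 102, 175 and 184 CPM.

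Cell cycle genes had 0 calls among 30 tested, with 11 (36.7%) apart and TFH2 higher and 1 (3.33%) apart and TFH2 lower. Of all genes tested, 9.8% and 8.18% lay so. The median of the list was log2 1.30, from 0.76 to 5.48 over the alternatives. Mki67, a marker of dividing cells, stood at 230.0 and 98.7 CPM in TFH2 libraries, against 25.5, 21.1 and 9.44 CPM in TFH libraries (adjusted p 0.756). Hmgb2, a chromatin protein of cycling cells, stood at 624 and 801 CPM against 379, 211 and 395 CPM in TFH libraries (adjusted p 0.756). Top2a, the topoisomerase of dividing cells, stood at 176 and 285 CPM against 140.0, 89.3 and 123 CPM (adjusted p 0.957). With the sex term Mki67, Hmgb2 and Top2a were called higher (adjusted p 0.000544, 1.02e-05 and 1.44e-07).

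Of the SOCS and STAT list (15 tested), the groups did not overlap with TFH2 lower in 2 (13.3%) and with TFH2 higher in 1 (6.67%). Of all genes tested, 8.18% and 9.8% lay so. Socs3 fell and 0 rose, where 0.0765% of all genes fell and 0.0556% rose. The list median was log2 -0.05 and ran from -0.37 to 0.26. Socs2, a feedback gene of STAT5, went the other way, at 53.9 and 57.8 CPM in TFH2 libraries against 0.274, 0 and 0 CPM in TFH libraries (adjusted p 0.53, DESeq2 0.0214). Of 25 immediate early and activation genes, Jund fell and 0 rose, with a median of log2 -0.41 that changed sign over the alternatives, from -0.54 to 0.18. In 6 (24.0%) the groups did not overlap with TFH2 lower and in 1 (4.0%) with TFH2 higher, against the same shares of all genes. Junb, another AP-1 subunit, stood at 4363 and 4918 CPM in TFH2 libraries, against 6663, 5767 and 6786 CPM in TFH libraries (adjusted p 0.624).

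The T cell identity list stood at 10851 and 10939 CPM in sum in TFH2 libraries, against 14171, 13774 and 11114 CPM in TFH libraries. Of its 16 genes, 0 were called, 6 (37.5%) lay apart with TFH2 lower and 2 (12.5%) with TFH2 higher, with a median of log2 -0.39. Cd3d, a chain of the T cell receptor complex, stood at 854 and 687 CPM in TFH2 libraries, against 1467, 1336 and 1095 CPM in TFH libraries (adjusted p 0.459), while Cd4 overlapped at 767 and 1156 CPM against 970.0, 1062 and 871 CPM. Both genes were chosen after their values were seen. Cd8a had 0 counts in all 5 libraries. The sums of 5 of 7 lists of other cells lay above all TFH libraries in both TFH2 libraries. The erythroid, MHC class II, myeloid, and CD8 and NK sums did so at CXCR5hi and CXCR5int as well. The neutrophil and basophil sums did so at CXCR5hi and overlapped at CXCR5int. At CXCR5hi the erythroid sums were 1185 to 1680.2 CPM in TFH2 libraries against 85.4 to 141 CPM in TFH libraries. The myeloid sums there were 1075 to 2121 CPM against 167 to 314 CPM. The erythroid list summed to 428 and 742 CPM, against 40.0, 73.2 and 101 CPM in TFH libraries, and 3 of its 7 tested genes were apart and TFH2 higher. Hbb-bs encodes adult beta globin, and its paralog may take some of its reads. It stood at 228 and 213 CPM against 27.7, 40.3 and 38.1 CPM (adjusted p 0.202, but 0.0196 without TFH2 replicate 1 and 0.0266 without TFH2 replicate 2), while Alas2 and Klf1 had 0 counts in all 5.

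The MHC class II list summed to 274 and 269 CPM in TFH2 libraries, against 56.7, 67.3 and 23.4 CPM in TFH libraries, with 5 of 8 tested genes apart and TFH2 higher and 1 TFH2 lower. The myeloid list summed to 423 and 462 CPM against 229.8, 163 and 229.8 CPM (4 of 17 apart and TFH2 higher), with Itgam and Cd14 at 0 in all 5. The B cell list summed to 585 and 222 CPM against 204, 245 and 214 CPM (0 of 12 apart and TFH2 higher, 1 TFH2 lower), with Ms4a1 and Cr2 at 0 in all 5. Igkc, an antibody light chain, stood at 358 CPM in TFH2 replicate 1 and 51.2 CPM in replicate 2, against 35.3, 42.1 and 65.4 CPM in TFH libraries (adjusted p 0.462, and 0.0464 without TFH2 replicate 2).

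The plasma cell list summed to 247 and 104 CPM in TFH2 libraries, against 78.3, 151 and 126 CPM in TFH libraries (1 of 8 apart and TFH2 higher). The neutrophil and basophil list summed to 48.2 and 47.4 CPM against 3.01, 0 and 0 CPM (1 of 6), and the CD8 and NK list to 66.2 and 63.2 CPM against 41.1, 19.5 and 27.3 CPM (1 of 5 higher and 1 lower). Over all genes tested, 9.8% lay apart with TFH2 higher and 8.18% with TFH2 lower. No gene of these lists was called in the main test. Hbb-bs was called with no filter on low counts (log2 2.52, adjusted p 0.00367). Hba-a1 and Hba-a2 were called with the sex term (adjusted p 5.78e-09 each). The part of these lists in the results above was not tested. In bulk samples fewer cells of a type and less RNA per cell cannot be told apart.

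**Figure D3:**
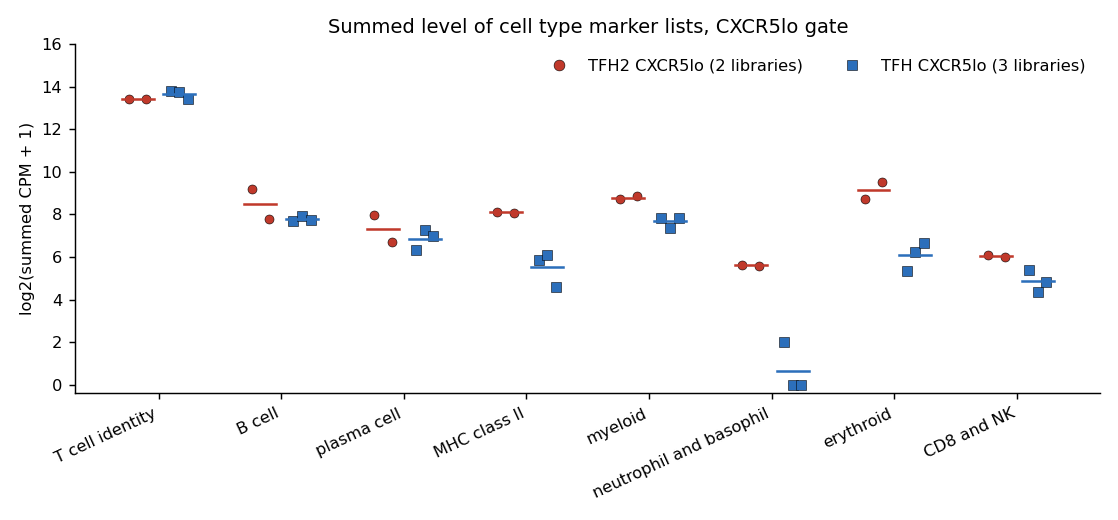
Summed level of 8 marker lists in the CXCR5lo gate, as log2(summed CPM + 1). Points are libraries (2 TFH2, 3 TFH) and bars the mean of the plotted values. Erythroid, MHC class II, myeloid, neutrophil and basophil, and CD8 and NK sums lie higher in both TFH2 libraries, and the T cell sum lies slightly lower.

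Whether the genotype difference at CXCR5lo differs from that in the CXCR5hi and CXCR5int gates was tested in the same fit, as the CXCR5lo difference minus the mean of the other 2. Of 14383 genes, 2 were called (0.0139%), Fam3c and Smad5. DESeq2 called 41, and 664 genes had an unadjusted p under 0.05. Without TFH2 replicate 1 the count was 61, 2 higher and 59 lower, and without TFH replicate 3 it was 1. All groups of 1 gate share no library with those of another gate.

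Fam3c stood at 92.1 and 43.2 CPM in TFH2 CXCR5hi libraries, against 11.3, 127 and 38.9 CPM in TFH CXCR5hi libraries, and at 34.0 and 103 CPM in TFH2 CXCR5int libraries, against 27.9 and 44.1 CPM in TFH CXCR5int libraries. The genotypes overlap in these gates, and TFH2 CXCR5lo is the only one of the 6 TFH2 and TFH groups with 0 counts (adjusted p of the difference 3.28e-05). Smad5 stood at 46.4 and 7.69 CPM against 5.81, 41.4 and 15.6 CPM at CXCR5hi, and at 24.3 and 17.1 CPM against 12.6 and 66.5 CPM at CXCR5int (adjusted p 0.0443). Its call was lost in a fit on the 14 TFH and TFH2 libraries (adjusted p 0.146) and without TFH2 replicate 2 (adjusted p 0.383).

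Cxcr6 stood at 26.7 and 129 CPM in TFH2 CXCR5hi libraries, against 21.5, 20.4 and 38.2 CPM in TFH CXCR5hi libraries, and at 32 and 136 CPM against 26.0 and 20.8 CPM at CXCR5int. In these gates replicate 1 of TFH2 lies near the TFH libraries and replicate 2 well above, while at CXCR5lo both are high. The difference between gates was log2 3.00 ± 0.69 (adjusted p 0.134). Foxo1 stood at 159 and 172 CPM against 105, 220.1 and 237 CPM at CXCR5hi, with a difference between gates of log2 -2.02 ± 0.53 (adjusted p 0.582). Pik3r5, a subunit of the G protein activated phosphoinositide kinase, stood at 9.16 and 2.73 CPM in TFH2 CXCR5lo libraries against 4.93, 49.9 and 16.0 CPM in TFH CXCR5lo libraries (adjusted p of the difference between gates 0.565).

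Some of the CXCR5lo calls lay apart in the same direction in the other gates. Of the 8 named genes higher at CXCR5lo, 5 did so at CXCR5hi and 6 at CXCR5int, where 10.1% and 16.2% of all genes tested lay apart and higher. Of the 8 named genes lower, 3 did so at CXCR5hi and 5 at CXCR5int, against 6.86% and 12.5% of all genes. In both gates it was 6 of the 16 (2.83% of all genes higher and 1.75% lower), namely Ddx3y, Rgs1, Serinc3, Asb2, Actn1 and Socs3. By Ddx3y and Xist, all TFH2 libraries of these gates read as male and all TFH libraries as female. Ddx3y is therefore bound to lie apart in each gate, and it is counted above. A gene apart in every gate does not part sex from genotype. The labels name no animals, so the gates may share donors and are not independent support. Rgs1 stood at 248 and 359.8 CPM in TFH2 CXCR5hi libraries, against 125, 109 and 122 CPM in TFH CXCR5hi libraries. Socs3 stood at 167 and 203 CPM in TFH2 CXCR5hi libraries, against 412, 394 and 389.8 CPM in TFH CXCR5hi libraries. Asb2 stood at 492 and 325 CPM in TFH2 CXCR5hi libraries, against 144, 208 and 205 CPM in TFH CXCR5hi libraries; its levels were lower at CXCR5lo in both genotypes, which was not tested. Id2 was lower at CXCR5hi than at CXCR5lo in TFH2 cells, at 105 and 188 CPM in TFH2 CXCR5hi libraries, against 107, 107 and 64.2 CPM in TFH CXCR5hi libraries. Nop58 did not follow its CXCR5lo direction at CXCR5hi, where it stood at 253 and 255 CPM in TFH2 libraries, against 301, 298 and 303 CPM in TFH libraries.

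**Figure D4:**
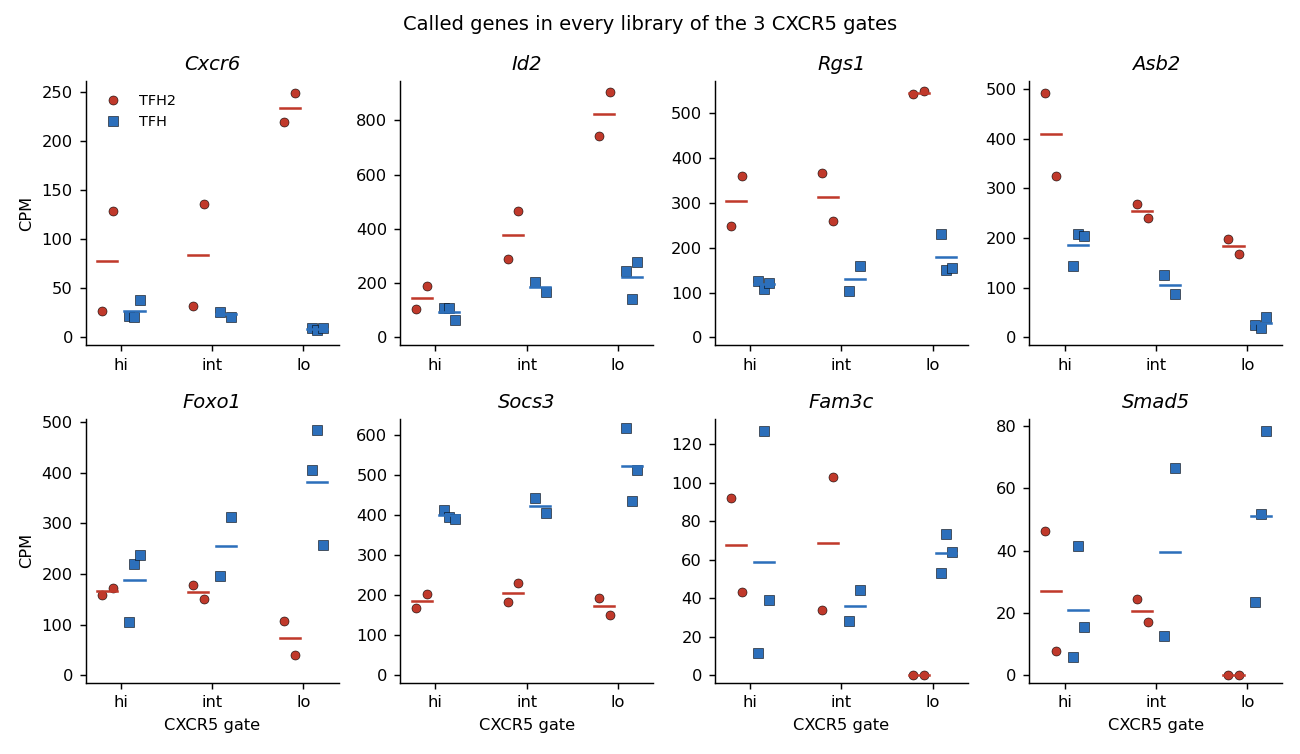
CPM of 8 genes called at CXCR5lo, by CXCR5 gate (hi, int, lo). Points are libraries, circles TFH2 (2 per gate) and squares TFH (3, 2 and 3), with bars at the means; each axis includes 0. Fam3c and Smad5 reach 0 in TFH2 cells at CXCR5lo, and Cxcr6 is highest there.

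The gates can be read in Cxcr5 itself, without a test. Through the gates hi, int and lo, its mean was 128 ± 15.9, 48.3 ± 5.91 and 35.0 ± 0.65 CPM in TFH2 cells (SD, n = 2 each), and 104 ± 28.4, 34.2 ± 33.3 and 20.6 ± 7.46 CPM in TFH cells (SD, n = 3, 2 and 3). Mean Bcl6 was 283, 93.9 and 31.9 CPM in TFH2 cells, and 119, 74.9 and 56.5 CPM in TFH cells. Type 2 cytokines had another order in TFH2 cells. Il5 was at 0 and 0 CPM at CXCR5hi, 2.02 and 6.30 CPM at CXCR5int, and 25.0 and 71.9 CPM at CXCR5lo. Il4 was at 41.6 and 57.5 CPM at CXCR5hi, 107 and 39.6 CPM at CXCR5int, and 16.2 and 3.27 CPM at CXCR5lo. Il13 was at 30.3 and 53.9, 8.49 and 42.8, and 62.3 and 132 CPM in the same gates. The difference between gates was log2 -3.78 for Il4 and 2.16 for Il13 (adjusted p 1.0 each). That test sets TFH2 against TFH cells, and the order of gates within TFH2 cells was not tested.

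**Figure D5:**
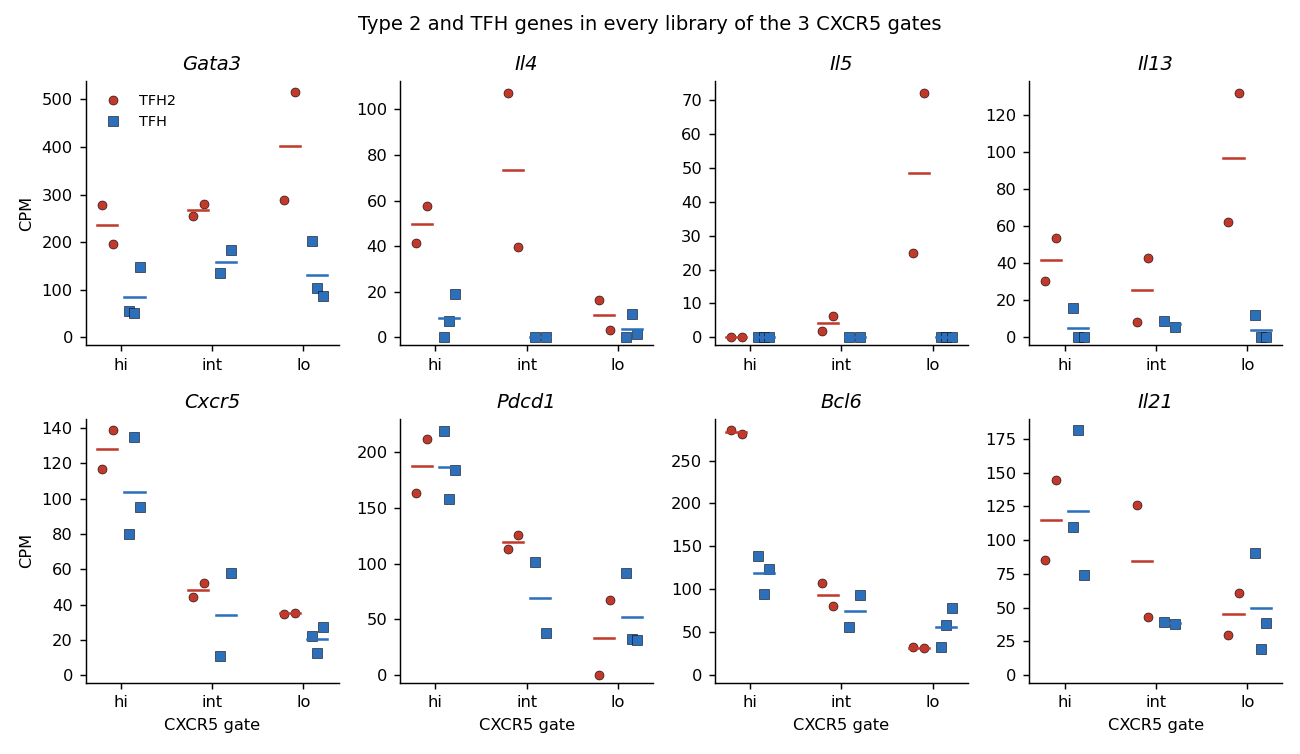
CPM of type 2 genes (top) and TFH genes (bottom) by CXCR5 gate. Points are libraries, circles TFH2 and squares TFH, with bars at the means; each axis includes 0. Il5 appears in TFH2 cells at CXCR5int and CXCR5lo, Il4 is lowest in TFH2 cells at CXCR5lo, and Cxcr5 and Bcl6 means are lowest at CXCR5lo in both genotypes.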

How the data were processed

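CD4 T cells of mouse spleen were sorted by the CXCR5 gate, and QuantSeq libraries were made from 10 ng of total RNA, per the labels' protocols. The deposited files hold whole counts per gene, not normalized by the authors. Tools named in the submitters' processing notes are featureCounts 1.6.0, STAR 2.7.0c and Bowtie 0.12.2, with the builds mm10, GRCm38.p6 and mm9. For the QuantSeq files, the choice among them is not given in sources used here. QuantSeq depth over the 22 libraries was 1.83 to 4.44 M counts, and reads carry no molecular identifiers in these files. Names and coordinates came from GENCODE M21 (GRCm38); 93 of 55573 gene identifiers had none, with 0.00617% of counts.

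The quasi-likelihood test of edgeR 4.0.16 (R 4.3.3) used TMM factors, filterByExpr at a count of 10 and a total of 15, and a robust fit over all 22 QuantSeq libraries in 9 groups (13 residual degrees of freedom, biological coefficient of variation 1.26), 2-sided tests, and Benjamini-Hochberg adjustment over 14383 genes, with a call at an adjusted p under 0.05. The test was tried on simulated data with known changes. Those data had a smaller spread than these libraries, so they do not show the power of the test here. Unless another fit is named, an adjusted p is from this test. Errors of log2 differences are standard errors. CPM uses the library total. A fold against a group at 0 puts 3 counts in each empty library. DESeq2 1.42.0, RLE factors, no filter, the 5 libraries alone, a sex term and each of the 5 libraries left out were the alternatives.

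The libraries, gene lists and tests were chosen with earlier results of these data known. Named genes are up to 15 called per direction by lowest p, called members of lists, a panel (Cxcr5, Pdcd1, Bcl6, Il21, Il4, Il5, Il13, Gata3, Cxcr6, Irf7, Klf2, Socs3, Ddx3y, Xist), 5 genes with the lowest p for the difference between gates, and up to 4 members per list with the highest mean CPM. Other members were chosen after their values were seen and are given by value. Results for some genes are not reported here.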

Additional observations from a re-analysis of the deposited data

Results flagged for a closer look

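The genotype difference at CXCR5lo differed from that in the other gates in 2 genes by edgeR's test of the difference. Fam3c had 0 counts in both TFH2 CXCR5lo libraries and counts in every other TFH2 and TFH library (adjusted p 3.28e-05). Smad5 showed the same pattern (adjusted p 0.0443). Groups of 2 and 3 libraries are too small for a test of single outlying libraries.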

How the results depend on the processing

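The 16 named calls were followed through 10 alternatives, 160 values in all: 111 kept their call, 49 lost it and 0 changed direction. The count of 19 became 115 with DESeq2, 35 with no filter on low counts, 7 in a fit on the 5 libraries alone and 82 with a sex term. With 1 library left out it ran from 13 to 118. DESeq2 called all 19, RLE factors 18, no filter 19 and the 5 libraries alone 4 of them. For the difference between gates, the count of 2 became 41 with DESeq2 and 4 in a fit on the 14 TFH and TFH2 libraries, and ran from 1 to 61 with 1 library left out. Of the genes not called, with 1 library left out, the log2 difference of Pdcd1 ran from -10.32 to 0.25 (without TFH2 replicate 2, where the remaining library has 0 counts, and without TFH2 replicate 1), of Il21 from -0.79 to 0.47 (0.17 without TFH2 replicate 1, 0.47 without TFH replicate 1) and of Il4 from -0.38 (without TFH2 replicate 1) to 3.77. Il4 turned to -6.11 with the sex term. Xist turned to 5.67 with the sex term. The cause of these changes was not tested. A library left out of the TFH2 group leaves 1, which is assumed to vary like the other groups. No paired analysis was possible because the labels give no replicate numbers for these libraries; numbers here are in accession order. In the shallowest library, of 1.83 M counts, a gene at 0 may have had a level of up to 1.64 CPM (3 counts), by counting error alone.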
